A study of Homo sapiens with 6 samples.

Results

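CYTOR and MIR4435-2HG are a pair of paralogous long non-coding RNA genes on human chromosome 2, and their RNA was compared between U-2OS osteosarcoma cells given an siRNA against SFPQ and cells given a control siRNA. The pair was chosen by gene name, as the rows called CYTOR and MIR4435-2HG, which are 2 of the 35036 genes in the deposited count table. Each was measured in 6 libraries, 3 from SiCtrl cells and 3 from SiSFPQ cells. Every library, the controls included, came from cells treated with actinomycin D, a drug that blocks transcription, so no untreated level exists for either gene. A group difference in RNA present before the drug and one in RNA loss under it therefore cannot be told apart. The sources used here give no dose, duration or read length. Nothing in the labels says that the 3 libraries of a group were separate cultures, so each p-value measures only the spread between these libraries, which may be technical. In bulk RNA of this kind, fewer cells expressing a gene and less RNA per cell cannot be told apart.

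Long non-coding RNAs are transcribed and spliced like messenger RNAs but are not translated into known proteins. CYTOR, the cytoskeleton regulator RNA, was formerly called LINC00152 and is widely described as raised in tumours. MIR4435-2HG, also called MORRBID, lies beside BCL2L11, which encodes the pro-apoptotic protein BIM, and has been studied as a regulator of myeloid cell survival. SFPQ is a nuclear RNA-binding protein of paraspeckles with roles in transcription and splicing.

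The table held non-coding genes, and its totals were 1298658 to 1599566 counts per library, a subset of the reads rather than the depth sequenced. After filtering, 6325 genes were tested, and 48.4% of them were called at an adjusted p under 0.05 by the edgeR quasi-likelihood test. The knockdown could not be checked from SFPQ, nor the cell line from the osteoblast markers RUNX2, SP7, ALPL, COL1A1, COL1A2, SPP1, BGLAP and SPARC, since these coding genes were not analysed here. Levels are in CPM, counts scaled to a fixed total of this table after TMM normalisation, and fold changes are SiSFPQ over SiCtrl.

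CYTOR (ENSG00000222041) lies on the plus strand at chr2:87454781-87636740 and MIR4435-2HG (ENSG00000172965) on the minus strand at chr2:111006015-111523376, as the table lists them on coordinates read as GRCh38. The short 2-exon transcripts of the pair in GENCODE 29 show how alike they are. In CYTOR the exons span chr2:87455429-87455645 and chr2:87521207-87521518, and in MIR4435-2HG chr2:111494885-111495086 and chr2:111429309-111429620. The stretch that holds every substitution is printed because it shows the bases by which a read could be assigned to either gene. It covers positions 205 to 488 of the CYTOR transcript and 190 to 473 of the MIR4435-2HG transcript, with the differing bases in capitals.
CYTOR ENST00000331944.10: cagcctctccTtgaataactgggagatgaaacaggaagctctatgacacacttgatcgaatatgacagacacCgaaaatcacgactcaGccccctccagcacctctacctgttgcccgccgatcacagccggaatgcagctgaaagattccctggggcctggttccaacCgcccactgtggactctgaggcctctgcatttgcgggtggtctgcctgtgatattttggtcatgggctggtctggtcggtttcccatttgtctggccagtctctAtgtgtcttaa
MIR4435-2HG ENST00000409569.2: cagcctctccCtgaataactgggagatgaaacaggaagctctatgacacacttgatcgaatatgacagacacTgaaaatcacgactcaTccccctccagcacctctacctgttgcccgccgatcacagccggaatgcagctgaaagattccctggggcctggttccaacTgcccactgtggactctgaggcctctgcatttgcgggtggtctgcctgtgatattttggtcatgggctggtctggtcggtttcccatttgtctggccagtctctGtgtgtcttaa
The CYTOR transcript is 529 bases long and that of MIR4435-2HG 514. Over 515 aligned columns, 509 were identical (98.8%). With the CYTOR base first, positions counted from 1 at the 5′ end of the CYTOR transcript and the MIR4435-2HG base last, the 5 substitutions are T215C, C277T, G293T, C374T and A478G. A single gap falls in a run of T, which is 1 base longer in CYTOR. The longest identical stretch is 180 bases and ends just before the first substitution. Of all 50-base windows of the CYTOR transcript, 47.9% occur in some transcript of MIR4435-2HG, and of all 150-base windows 8.16%. In the other direction the shares were 49.5% and 8.49%. Over all GENCODE 29 transcripts of each gene, 38 for CYTOR and 25 for MIR4435-2HG, the likeness is smaller. There 10.6% of the distinct 100-base windows of CYTOR and 14.3% of those of MIR4435-2HG occur in the paralogue. Windows found in no other gene made up 82.9% for CYTOR and 80.1% for MIR4435-2HG. For MIR4435-2HG these transcripts cover 13094 exonic bases, while the counted row lists 39168, and exons absent from GENCODE 29 were not checked. The sources used here do not say how reads that match both genes were counted.

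**Figure D1:**
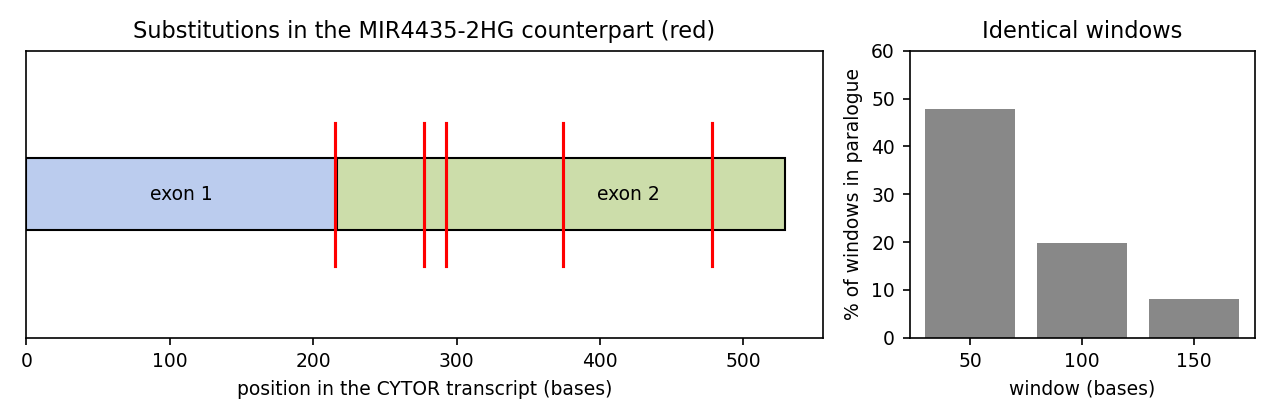
Short CYTOR transcript with the sites that differ in MIR4435-2HG, with position from the 5′ end of the CYTOR transcript in bases on the x axis. Red marks on the left show the 5 substitutions, with 180 bases as the longest identical run; bars on the right give the percentage of CYTOR windows of 50, 100 and 150 bases found in MIR4435-2HG, which goes from 47.9% to 8.16%.

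The promoter windows of the pair are printed because the sequence near the start is shared as well. They run from 250 bases before to 50 after the start in RefSeq (GRCh38.p14), CYTOR at chr2:87455177-87455476 on the plus strand and MIR4435-2HG at chr2:111495112-111495411 on the minus strand. Capitals mark TGAGTCA, a sequence recognised by AP-1 transcription factors.
CYTOR promoter: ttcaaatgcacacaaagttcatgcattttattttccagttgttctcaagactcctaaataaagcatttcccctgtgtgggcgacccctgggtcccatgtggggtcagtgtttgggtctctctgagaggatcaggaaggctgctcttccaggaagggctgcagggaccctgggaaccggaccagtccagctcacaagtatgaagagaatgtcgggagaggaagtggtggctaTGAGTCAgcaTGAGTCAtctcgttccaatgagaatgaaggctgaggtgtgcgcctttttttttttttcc
MIR4435-2HG promoter: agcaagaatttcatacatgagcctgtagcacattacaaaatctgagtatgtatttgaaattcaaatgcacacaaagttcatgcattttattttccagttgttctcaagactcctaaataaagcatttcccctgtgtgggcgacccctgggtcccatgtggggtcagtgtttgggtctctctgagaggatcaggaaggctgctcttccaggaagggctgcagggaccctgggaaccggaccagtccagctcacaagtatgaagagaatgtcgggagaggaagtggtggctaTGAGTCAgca
RefSeq places the starts at different points of the same sequence, so the windows overlap over 241 aligned bases, and 241 of these were identical (100%). TGAGTCA, searched with its reverse complement TGACTCA, occurred 2 times in the CYTOR window, from 19 and from 9 bases before the start. In the MIR4435-2HG window it occurred 1 time, after the start, beginning at base 41 with the start as base 1. The MIR4435-2HG copy aligns with the CYTOR copy farther from the start, and the stretch holding the other lies beyond the MIR4435-2HG window. Of 35116 RefSeq promoter windows of the same length, 1738 (4.95%) held the sequence. A match describes these letters and is not a measured binding site.

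MIR4435-2HG takes its name from a microRNA that is encoded at both loci. The mature sequence is identical, and its seed, bases 2 to 8, is in capitals.
hsa-miR-4435: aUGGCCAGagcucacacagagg
The MIR4435-1 hairpin at chr2:87629755-87629834 on the plus strand lies wholly within exons that GENCODE 29 gives CYTOR, 80 of 80 bases. The MIR4435-2 hairpin at chr2:111321013-111321086 on the minus strand lies within the listed span of MIR4435-2HG. None of its GENCODE 29 exons holds the hairpin, with 0 of 74 bases in them. GENCODE 29 gives MIR4435-2HG 13094 exonic bases, where the count table lists 39168, and the exons of that longer annotation were not analysed here. The microRNA itself was not measured by these poly(A)-selected libraries.

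CYTOR RNA was higher after SFPQ knockdown, and MIR4435-2HG RNA was slightly lower. In SiCtrl libraries 1 to 3 CYTOR stood at 603, 677 and 604 CPM, from 845, 996 and 807 counts. In the SiSFPQ libraries it stood at 861, 808 and 902 CPM, from 1127, 1298 and 1395 counts. Every SiSFPQ library lay above every SiCtrl library, the nearest being SiSFPQ 2 and SiCtrl 2. Mean CYTOR levels were 628 ± 42.3 and 857 ± 46.8 CPM (SD, n = 3 each), a rise of 1.36-fold with a 95% interval of 1.27 to 1.47. On the log2 scale CYTOR changed by 0.45 ± 0.06 (SE), with an adjusted p of 8.7e-15 by the edgeR quasi-likelihood test over all 6325 genes.

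MIR4435-2HG stood at 983, 1062 and 999.5 CPM in the SiCtrl libraries, from 1378, 1563 and 1336 counts. In the SiSFPQ libraries it stood at 948, 886 and 947 CPM, from 1241, 1422 and 1465 counts. The groups did not overlap, but the lowest control and the highest SiSFPQ library lay close together. Mean MIR4435-2HG levels were 1015 ± 41.5 and 927 ± 35.6 CPM (SD, n = 3 each), and the log2 change was -0.13 ± 0.05 (SE), with an adjusted p of 0.024 by edgeR. The call on MIR4435-2HG was lost with plain library totals (log2 change -0.07, adjusted p 0.28), with no filter on low counts (-0.14, 0.065) and with DESeq2 (-0.13, 0.089). In the edgeR fit it was also lost without SiCtrl 2 (-0.11, adjusted p 0.10) and without SiSFPQ 2 (-0.10, adjusted p 0.18). Of all tested genes, 54.0% had groups that did not overlap, 27.1% with SiSFPQ higher and 26.9% with it lower, so separate groups were common in this comparison.

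**Figure D2:**
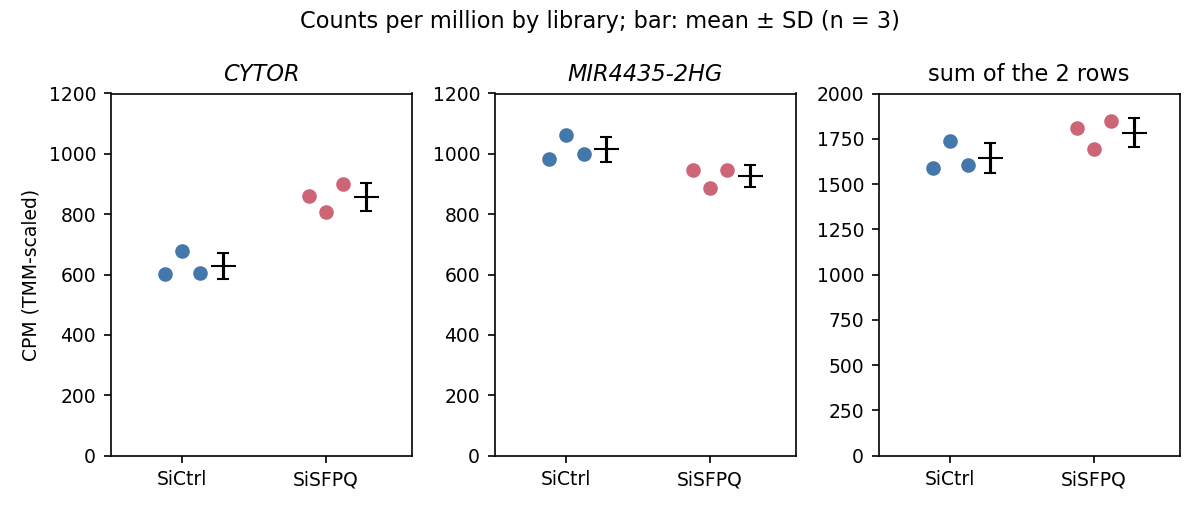
Level of CYTOR, of MIR4435-2HG and of their sum in each library, in CPM on the y axis, with the group on the x axis. Points are libraries and bars the mean ± SD of 3: CYTOR is higher in all 3 SiSFPQ libraries, at 808 to 902 CPM against 603 to 677, while MIR4435-2HG is slightly lower.

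Added together, the pair changed little. If each read matching both genes was counted once, the summed level does not depend on how such reads were divided between them. Whether such reads were left out or counted in both rows is not known, and either would alter the sum. It was 1586, 1739 and 1603 CPM in the SiCtrl libraries and 1808, 1694 and 1849 CPM in the SiSFPQ libraries. These groups overlapped, since SiSFPQ 2 lay below SiCtrl 2. Mean summed levels were 1643 ± 83.6 and 1784 ± 80.1 CPM (SD, n = 3 each), a ratio of 1.09 with a 95% interval of 1.02 to 1.16. The log2 change of the sum was 0.12 ± 0.05 (SE), with an adjusted p of 0.028 by edgeR, in a fit where 48.4% of 6324 genes were called. That call was lost with DESeq2 (0.12, adjusted p 0.10), with either other filter (0.11 and 0.12, adjusted p 0.13 and 0.054) and without any of SiCtrl 1, SiCtrl 3, SiSFPQ 1 or SiSFPQ 3, where the edgeR adjusted p was 0.081 to 0.18.

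The division of the pair's counts shifted toward CYTOR, a measure that no library scaling can alter. CYTOR took 38.0% of the pair's counts in SiCtrl 1 (exact 95% Clopper-Pearson interval 36.0 to 40.1), 38.9% in SiCtrl 2 (37.0 to 40.8) and 37.7% in SiCtrl 3 (35.6 to 39.7). It took 47.6% in SiSFPQ 1 (45.6 to 49.6), 47.7% in SiSFPQ 2 (45.8 to 49.6) and 48.8% in SiSFPQ 3 (46.9 to 50.6). The intervals cover counting error only, and none of a SiCtrl library met one of a SiSFPQ library. Mean shares were 38.2 ± 0.652% and 48.0 ± 0.649% (SD, n = 3 each), a difference of 9.83 percentage points. The exact permutation test over the 6 libraries gave a two-sided p of 0.1, the smallest it can give with 3 against 3, and 0.175 after adjustment over 7 shares. There were 0.618 ± 0.0171 CYTOR counts per MIR4435-2HG count in SiCtrl cells and 0.924 ± 0.0242 in SiSFPQ cells (SD, n = 3 each).

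**Figure D3:**
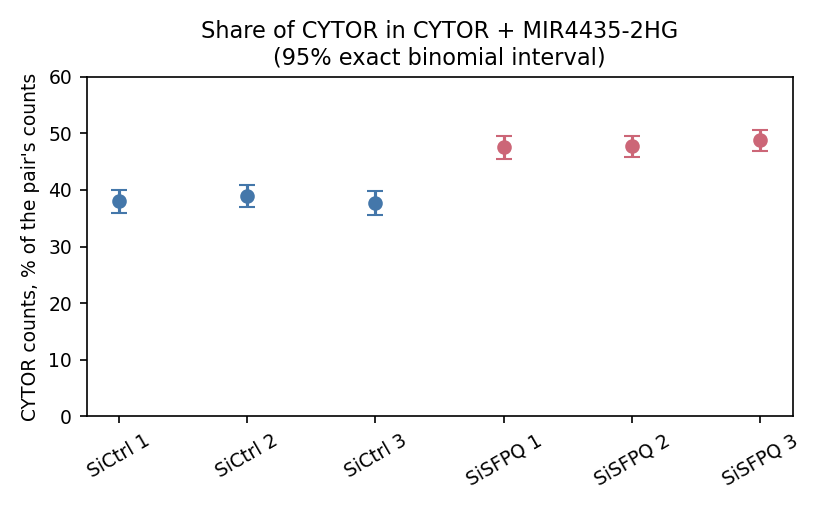
CYTOR counts as a percentage of CYTOR plus MIR4435-2HG counts in each library, with exact 95% binomial intervals as bars. The 3 SiCtrl libraries sit between 37.7% and 38.9% and the 3 SiSFPQ libraries between 47.6% and 48.8%.

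Both genes were among the more abundant of the table. By mean CPM over all libraries MIR4435-2HG ranked 157 and CYTOR 210 of the 6325 tested genes. Per kilobase of the exonic length that the table lists, 17782 bases for CYTOR and 39168 for MIR4435-2HG, the order was the opposite. CYTOR stood at 35.3 ± 2.38 CPM per kilobase in SiCtrl and 48.2 ± 2.63 in SiSFPQ cells, and MIR4435-2HG at 25.9 ± 1.06 and 23.7 ± 0.908 (SD, n = 3 each). The median tested gene had 15.8 CPM per kilobase. The order turned back with the exonic bases of GENCODE 29 as length, 17693 for CYTOR and 13094 for MIR4435-2HG. CYTOR then stood at 35.5 ± 2.39 and 48.4 ± 2.64 CPM per kilobase (SD, n = 3 each). MIR4435-2HG stood at 77.5 ± 3.17 and 70.8 ± 2.72 (SD, n = 3 each). These are the same counts over another length, since reads were not recounted over the GENCODE 29 exons. Counts and length may then cover different exons, so which gene is higher per length was not settled. Of the MIR4435-2HG exonic bases, 727 (5.55%) lie over exons of BCL2L11 on the opposite strand, while 0 of the 17693 exonic bases of CYTOR lie over coding exons. The strand cannot be relied on to keep such reads apart: an overlapping pair of genes on opposite strands of chromosome 1, ENSG00000297076 and ENSG00000297093, held 8001 and 7991 counts.

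Other rows of the table that overlap CYTOR also rose. Of 6 such rows, 5 had a count and 3 passed the filter. All 3 of 3 were higher, where 24.5% of all tested genes were. Their median log2 change was 0.67 against 0.01 over all tested genes. NCAL1 and LINC01943 share exonic bases with CYTOR, so their rise cannot be taken as separate from that of CYTOR. NCAL1 (ENSG00000284879), a long non-coding RNA gene on the same strand at chr2:87455476-87767359, had 551, 643 and 522 counts in the SiCtrl and 756, 868 and 904 in the SiSFPQ libraries. Its level went from 407 ± 26.0 to 567 ± 23.5 CPM (SD, n = 3 each) with separate groups, a log2 change of 0.48 ± 0.06 (SE) and an edgeR adjusted p of 1.3e-13. Of its 3849 exonic bases, 436 (11.3%) are shared with CYTOR exons, and others lie over exons of the coding genes PLGLB2 and RGPD2. NCAL1 counts equalled 64.8 ± 0.344% of CYTOR counts in SiCtrl and 66.3 ± 1.26% in SiSFPQ cells (SD, n = 3 each). These percentages overlapped between the groups and differed by 1.44 points (exact permutation p 0.2, adjusted 0.28). Whether the same reads were counted in both rows was not tested.

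LINC01943 (ENSG00000280721), on the opposite strand over the start of CYTOR at chr2:87439522-87459111, had a larger log2 change than CYTOR. It had 413, 508 and 417 counts in the SiCtrl and 680, 776 and 791 in the SiSFPQ libraries. Its level went from 317 ± 25.6 to 505 ± 18.9 CPM (SD, n = 3 each) with separate groups, a log2 change of 0.67 ± 0.06 (SE) and an edgeR adjusted p of 2.9e-23. In GENCODE 29 it shares 405 of 1475 exonic bases (27.5%) with CYTOR. Whether reads over these bases were counted in either row or in both was not tested. LINC01943 counts were 50.5 ± 1.46% of CYTOR counts in SiCtrl and 58.9 ± 1.96% in SiSFPQ cells, with separate groups and an exact permutation p of 0.1 (adjusted 0.175).

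ENSG00000273445, inside CYTOR on the opposite strand at chr2:87458603-87500105, also rose. Its mean over all libraries was 35.4 CPM, against 28.6 for the median tested gene. It had 37, 42 and 26 counts in the SiCtrl and 56, 66 and 84 in the SiSFPQ libraries, which did not overlap. Its level went from 24.8 ± 4.75 to 46.1 ± 7.19 CPM (SD, n = 3 each), a log2 change of 0.89 ± 0.18 (SE) with an edgeR adjusted p of 4.2e-06. Its exon in GENCODE 29 shares 0 of 540 bases with CYTOR, but the table lists 2734 exonic bases for it. The overlap of the others with CYTOR was not analysed here. Whether reads of ENSG00000273445 came from the opposite strand or from CYTOR RNA was not tested. The remaining row with at least 10 counts, ENSG00000301212, had 20 counts in the SiCtrl and 19 in the SiSFPQ libraries and was not tested.

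Of 15 rows that overlap MIR4435-2HG, 15 had a count and 3 passed the filter, of which 1 was higher and 2 were not called, with a median log2 change of -0.04. That share is near the 24.5% of all tested genes that were higher. ENSG00000285016, on the same strand at chr2:111429312-111699033, had 566, 741 and 560 counts in the SiCtrl and 591, 635 and 686 in the SiSFPQ libraries. These groups overlapped: the level was 442 ± 53.7 and 430 ± 30.2 CPM (SD, n = 3 each), a log2 change of -0.04 ± 0.06 (SE) with an edgeR adjusted p of 0.58. It shares 297 of 1304 exonic bases (22.8%) with MIR4435-2HG and also lies over exons of the coding gene ANAPC1. ENSG00000295115, on the opposite strand at chr2:111410417-111441239, had 198 ± 28.4 and 178 ± 9.17 CPM (SD, n = 3 each), a log2 change of -0.15 ± 0.08 (SE) with an edgeR adjusted p of 0.13. Without SiCtrl 1 its log2 change was -0.27 and was called (edgeR adjusted p 0.0085). The span of ENSG00000295115 holds exon 2 of the short MIR4435-2HG transcript, and its own exons were not analysed here. Whether its reads were separate from those of MIR4435-2HG was not tested.

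The row that rose was ENSG00000295207, inside MIR4435-2HG on the opposite strand at chr2:111467016-111472724. It had 12, 21 and 15 counts in the SiCtrl and 32, 47 and 50 in the SiSFPQ libraries, which did not overlap. Its level went from 11.4 ± 2.85 to 28.7 ± 3.98 CPM (SD, n = 3 each), a log2 change of 1.33 ± 0.24 (SE) with an edgeR adjusted p of 2.1e-07. It equalled 1.11 ± 0.237% of MIR4435-2HG counts in SiCtrl and 3.10 ± 0.454% in SiSFPQ cells (exact permutation p 0.1, adjusted 0.175). The exons of ENSG00000295207 were not analysed here. Whether its reads came from the opposite strand or from MIR4435-2HG RNA was not tested.

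The positions of ENSG00000295207 and ENSG00000273445 inside the paralogues can be set side by side. Measured from the start of the short transcript in the direction of transcription, ENSG00000295207 covers 22.4 to 28.1 kilobases of MIR4435-2HG. In CYTOR the GENCODE 29 exon of ENSG00000273445 covers 22.1 to 22.6 kilobases, but the listed span of the counted row is 3.17 to 44.7, and where in it the counts fell is not known. The sequence of ENSG00000295207 was not analysed here, so its likeness to ENSG00000273445 was not tested. LINC01943 and SOCAR, which overlap the starts of CYTOR and MIR4435-2HG on the opposite strand, differed in level: LINC01943 held 3585 counts over the 6 libraries and SOCAR 22, of which 10 were in SiCtrl and 12 in SiSFPQ libraries. Other low rows over MIR4435-2HG were ENSG00000295306 with 9 and 15 counts in SiCtrl and SiSFPQ libraries, ACOXL-AS1 with 19 and 10, and ENSG00000280878 with 3 and 14. These were not tested.

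**Figure D4:**
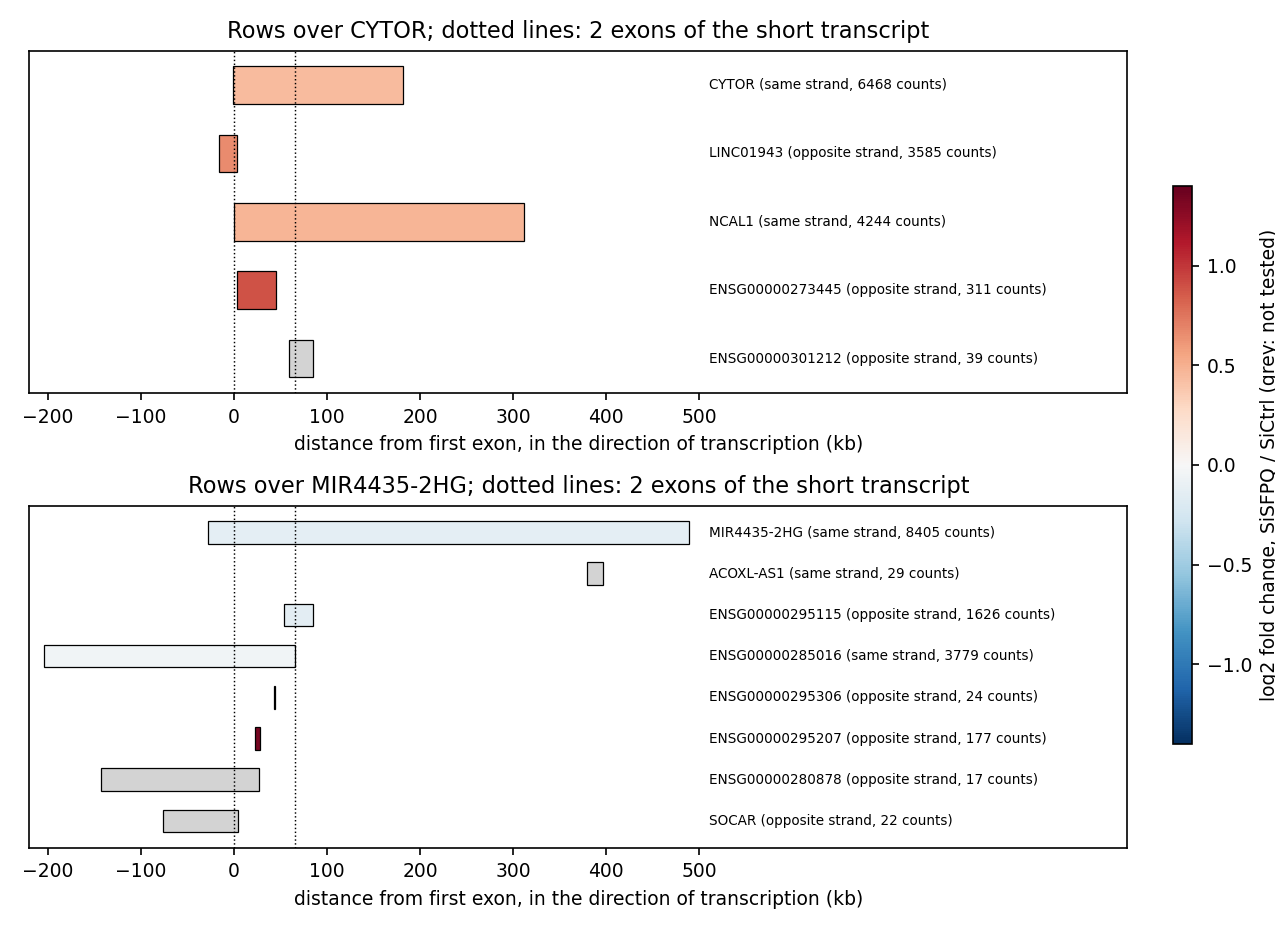
Listed spans of the rows over CYTOR (top) and MIR4435-2HG (bottom) with at least 10 counts, by distance in kilobases from the start of the short transcript in the direction of transcription. Colour gives the log2 change, SiSFPQ over SiCtrl, with untested rows in grey; the 4 tested rows over CYTOR, itself included, are higher, and over MIR4435-2HG only the small ENSG00000295207 is clearly coloured.

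Most tested neighbours beyond the overlapping rows were not called. Within 1 Mb of either gene lay 76 other rows, of which 17 were tested: 7 were higher, 0 lower and 10 not called, with a median log2 change of 0.20, where 24.5% of all tested genes were higher and 24.0% lower. By edgeR 1 row was lower at an unadjusted p under 0.05, and DESeq2 called 4 higher and 1 lower. Leaving out the rows that overlap the pair, 3 of 11 tested rows were higher and 8 not called, a share near that of all tested genes, and the median was -0.01. These 3 lie on the MIR4435-2HG side. LINC01106 at chr2:110353799-110384528 went from 15.7 ± 5.63 to 28.1 ± 5.91 CPM (SD, n = 3 each), a log2 change of 0.84 with an edgeR adjusted p of 0.00061. ENSG00000293401 at chr2:112439178-112483281 went from 49.6 ± 5.40 to 67.5 ± 10.2 CPM (0.45, edgeR adjusted p 0.0032) and LINC01123 at chr2:109986977-110019161 from 17.5 ± 2.85 to 28.1 ± 8.34 CPM (0.65, edgeR adjusted p 0.0084). With DESeq2 none of these 3 was called, at adjusted p of 0.078, 0.13 and 0.17. In the edgeR fit LINC01123 was not called without SiCtrl 3 or without SiSFPQ 1 (adjusted p 0.073 and 0.16), nor ENSG00000293401 without SiSFPQ 2 (adjusted p 0.086). Leaving out SiCtrl 1 or SiSFPQ 2 gave 1 row lower within 1 Mb.

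**Figure D5:**
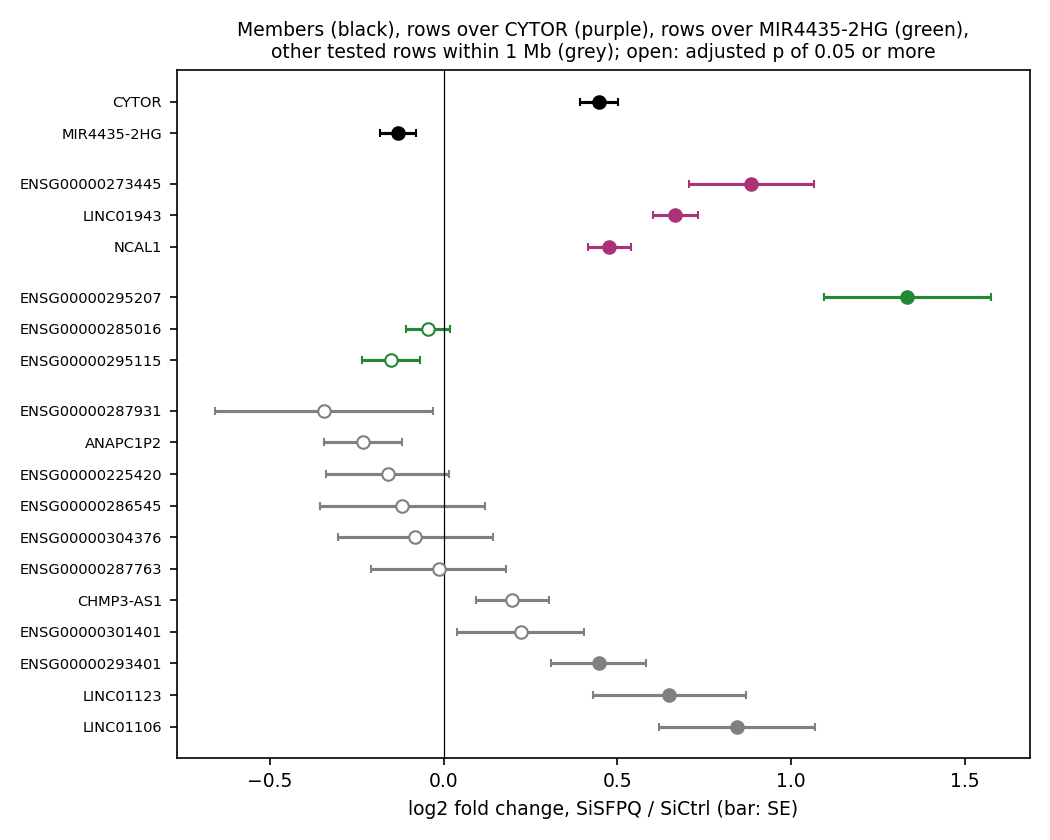
Log2 fold change, SiSFPQ over SiCtrl, of CYTOR, MIR4435-2HG and the tested rows around them, with bars of 1 SE and open points for rows that were not called. Rows over CYTOR lie above 0 from 0.48 to 0.89, while those over MIR4435-2HG lie from -0.15 to 1.33.

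By profile over the 6 libraries the paralogues were not among each other's nearest genes. Profiles were log2 CPM centred on each gene's mean, compared by root mean square distance among 6319 genes, as a description. The profile nearest to CYTOR was that of NCAL1, at 0.0226, which overlaps it. MAP3K9-DT, with 58.6 and 76.8 CPM in SiCtrl and SiSFPQ cells, followed at 0.0408, ZEB1-AS1 (13.0 and 17.5 CPM) at 0.0502 and ENSG00000261396 (83.0 and 118 CPM) at 0.0504. ZEB1-AS1 itself did not pass the edgeR test, at an adjusted p of 0.18. Nearest to MIR4435-2HG were the overlapping pair ENSG00000297076 and ENSG00000297093, at 0.0145 and 0.0148, then RAB5C-AS1 at 0.0333 and ENSG00000299803 at 0.0345. RAB5C-AS1 did not pass the edgeR test either, at an adjusted p of 0.52. The distance between CYTOR and MIR4435-2HG was 0.291. The median distance of the compared genes was 0.352 from CYTOR and 0.294 from MIR4435-2HG. In all, 2332 genes lay nearer to CYTOR than MIR4435-2HG did, and 3126 lay nearer to MIR4435-2HG than CYTOR did.

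Other long non-coding RNAs that are often named with CYTOR in tumours moved in both directions. Of 40 listed names, 37 had a row and 26 were tested: 13 were higher, 7 lower and 6 not called by edgeR, with a median log2 change of 0.26, beside 24.5% higher and 24.0% lower over all tested genes. DESeq2 called 8 of them higher. LINC00958 had the smallest adjusted p among those that rose, from 174 ± 15.5 to 415 ± 13.1 CPM (SD, n = 3 each), a log2 change of 1.25 with an edgeR adjusted p of 2.6e-62. LINC00857 (58.6 to 142 CPM), FOXD2-AS1 (76.6 to 148 CPM) and LINC00460 (145 to 224 CPM) also rose, by 1.28, 0.95 and 0.63 on the log2 scale. The change of CYTOR, 0.45, lay within the range of the 13 that rose, 5 of which (AFAP1-AS1, ZFAS1, LINC00963, UCA1 and CRNDE, named after their values were seen) changed less, by 0.21 to 0.42. MIAT, a nuclear long non-coding RNA, went from 533 ± 27.0 to 197 ± 21.0 CPM (SD, n = 3 each), a log2 change of -1.43 with an edgeR adjusted p of 5.1e-91. H19, an imprinted fetal transcript, fell by 1.79 on the log2 scale, LINC00662 by 0.57 and DLEU2 by 0.50. LINC-PINT and LINC00467 were not called, with log2 changes of -0.06 and 0.06 and edgeR adjusted p of 0.68 and 0.72.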

How the data were processed

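Poly(A)-selected, stranded libraries were made from total RNA of 6 U-2OS samples, per the labels' protocols. The deposited table holds raw read counts per gene as the authors left them, whole numbers with no normalisation; aligner, counting program, annotation and treatment of reads matching several genes are not given in the sources used here. All 6 count columns were used. The group difference was fitted in R 4.3.3 by robust quasi-likelihood in edgeR 4.0.16, after filterByExpr and with TMM factors, and two-sided p-values were adjusted by Benjamini-Hochberg over 6325 genes, with calls at 0.05. SE is the log2 change over the square root of its F statistic, and 95% intervals of folds are normal ones from it. The filter removed 14030 rows with no count and others with few. DESeq2 1.42.0, limma 3.58.1 (voom), other scalings and filters, a block on replicate number and fits without each library in turn were alternatives. Shares were compared by exact permutation in SciPy 1.17.1. The fit was tested on simulated counts.

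Sequences came from GENCODE 29 transcripts and from RefSeq tables on GRCh38.p14, in which both genes and both hairpins were matched by symbol, and were aligned with Biopython 1.88. The members and lists were chosen with earlier results of these data known. Named genes were the pair; rows over either with at least 10 counts; called rows within 1 Mb that averaged 5 CPM or more; of the tumour-linked list the 4 called members with the smallest adjusted p in each direction and the 2 most abundant uncalled ones; and the 4 nearest profiles of each gene at that same level. BCL2L11, ANAPC1, PLGLB2 and RGPD2 are named as the annotation gives them. No libraries of a group agreed within counting noise (chi-square tests), so each was counted as 1 sample, though repeat libraries of 1 RNA sample could also differ by this much.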

Additional observations from a re-analysis of the deposited data

How the results depend on the processing

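CYTOR stayed higher and called under all 14 alternatives, with log2 changes of 0.41 to 0.51 and adjusted p of 2.7e-19 to 3.5e-09. MIR4435-2HG was lower under all 14 but lost its call with plain library totals (-0.068), no filter (-0.14) and DESeq2 (-0.13). Leaving out single libraries gave -0.16 to -0.10, and the call was also lost without SiCtrl 2 and without SiSFPQ 2. The summed pair lost its call with no filter (0.11), at least 1 CPM in 3 libraries (0.12) and DESeq2 (0.12). Leaving out single libraries gave 0.085 to 0.16, and its call was also lost without SiCtrl 1, SiCtrl 3, SiSFPQ 1 or SiSFPQ 3. DESeq2 called 844 genes higher and 892 lower over the table, against 1547 and 1516 in the edgeR fit, and 4 rows higher within 1 Mb and 8 tumour-linked genes higher. Rows lower within 1 Mb numbered 1 with no filter, 2 with at least 1 CPM in 3 libraries, 1 with DESeq2 and 0 to 1 leaving out single libraries, against 0. The causes of these changes were not tested.

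The rise in the CYTOR share was 9.46 to 10.2 points leaving out single libraries, where the smallest possible exact permutation p is 0.2, and 9.41 points per kilobase. An alternative chosen after seeing the data took exonic bases of GENCODE 29 as length, with counts not recounted over those exons. The log2 ratio of CYTOR to MIR4435-2HG level per kilobase was then -1.13 in SiCtrl and -0.55 in SiSFPQ cells. With the listed lengths it was 0.45 and 1.03. Of 364 values for 26 other named genes, 347 kept direction and side of the threshold, 11 lost and 1 gained a call and 5 reversed, none of the 5 called: ENSG00000285016 (0.020 with plain library totals, 0.046 without SiCtrl 2, 0.016 without SiSFPQ 2; -0.11 to 0.046 leaving out single libraries), LINC-PINT (0.0046 with plain library totals) and LINC00467 (-0.069 without SiCtrl 2; -0.069 to 0.15 leaving out single libraries). With replicate number as a block the log2 change of CYTOR was 0.45, of MIR4435-2HG -0.13 and of the sum 0.12, and no call on them changed. Same-numbered libraries did not deviate together (correlations -0.0047, 0.00097 and 0.010), so the numbers were not taken as pairs. Low counts limit the overlapping rows that were not tested.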
